A study of Homo sapiens with 5 samples.

Results

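The genes described here encode 40 receptor tyrosine kinases outside the Eph family, chosen by name from the 46427 genes of an RNA sequencing study of the established human glioblastoma line U87 MG. All 40 symbols were found in the expression table. The u87_control group held 2 libraries of the line (numbered 2 and 3), with the genotype given as CONTROL and no treatment. The f2n11_csc group held 3 libraries (numbered 1 to 3) that the labels call cancer stem cells and CD133 positive, and the design text calls them sorted from U87. The groups are called control and sorted here. The sources used here give neither the meaning of f2n11 nor the culture conditions. All libraries share the same parent line, and no CD133-negative or mock-sorted group is among the samples, so the sort itself and CD133 cannot be told apart. Nothing in the labels says that the libraries came from separate cultures, so p-values measure the spread between these samples alone, and that spread may be technical.

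Receptor tyrosine kinases span the cell membrane, bind growth factors or matrix proteins outside the cell and phosphorylate tyrosines inside it. The phosphorylated tyrosines recruit adaptor proteins that switch on the RAS to ERK cascade and the PI3K to AKT pathway, which drive growth, survival and movement. Phosphatases, ubiquitin ligases and Sprouty proteins switch the signal off. Glioblastomas are known for altered receptors of this class, above all EGFR, PDGFRA and MET, and a given tumour often carries several active receptors at once. A few members of the family, such as PTK7, RYK and ERBB3, have kinase domains with little or no catalytic activity.

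Sequencing depth was 17716823 to 29841238 counts per library, and the 40 receptor genes together held 19965 to 47493 of them. PROM1, which encodes the sort antigen CD133, had 12 counts in control 2, 7 counts in sorted library 1 and 0 in the other libraries, so its transcript did not check the sort at this depth. RNA composition moved with the groups: the 7SL RNA genes held 6.29% and 5.71% of counts in controls 2 and 3, and sorted libraries 1, 2 and 3 had 10.9%, 12.0% and 24.4%. Protein-coding genes held 79.1% and 82.5% of control counts, with 73.8%, 72.6% and 60.9% in the sorted libraries. The groups did not overlap in either share, and its part in the receptor results was not tested. Sorted library 3 stood furthest apart. Its correlation with the other sorted libraries was 0.976 to 0.979 across genes on log2(CPM + 1), against 0.993 between sorted libraries 1 and 2. Results for the receptors are therefore also given without it. The astroglial and glioma marker list was abundant, at 2487 to 3949 TPM summed over 9 genes, with AQP4 at 0 counts in all 5 libraries. The 6 lymphocyte markers were at 0 throughout, and of 12 macrophage and microglia markers AIF1, TYROBP, CX3CR1, C1QA and C1QB were.

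Of the 40 receptor genes, 23 had enough counts to be tested, 7 had a few counts and 10 had none in any library. Levels between genes are compared here in TPM, a unit per library total that corrects for transcript length. MET, the receptor of hepatocyte growth factor, was the most abundant receptor in both controls, at 106 and 118 TPM in controls 2 and 3. AXL, a receptor of the TAM family that binds GAS6, followed at 66.0 and 76.0 TPM. RYK (35.7 and 42.7 TPM), FGFR1 (24.1 and 29.9 TPM), DDR2 (23.7 and 24.3 TPM) and EGFR (14.7 and 19.1 TPM) came next. The order of these 6 was the same in both controls. The ranges of FGFR1 and DDR2 overlapped, and the other neighbours in this order did not. STYK1, ROS1, KDR, CSF1R, PDGFRA, TEK, INSR and ALK lay between 1.03 and 3.91 TPM in controls.

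**Figure D1:**
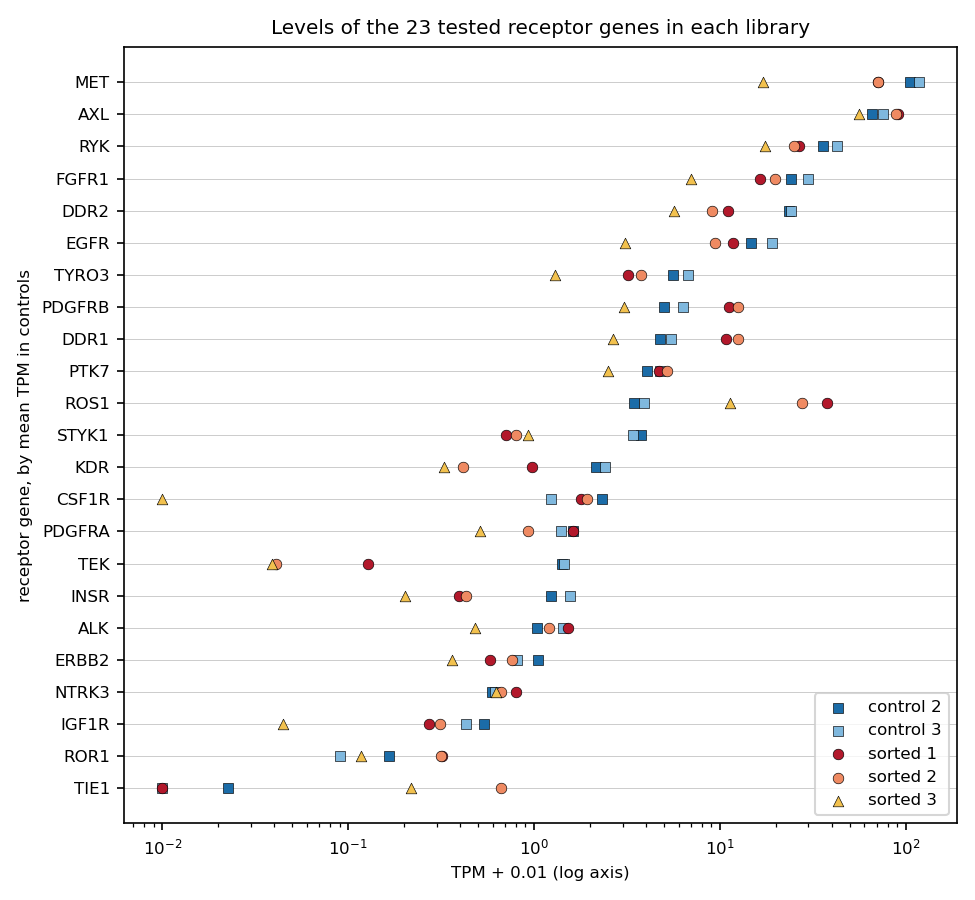
Levels of the 23 tested receptor genes, with TPM + 0.01 on a log axis and 1 point per library (squares, controls 2 and 3; circles, sorted libraries 1 and 2; triangles, sorted library 3). MET leads in the controls, ROS1 lies to the right of both controls in every sorted library and TEK to the left, and sorted library 3 is the lowest of the 5 for most genes on this scale.

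The composition of receptor mRNA is described here without a test. In each library the TPM of the 40 genes was summed and each gene given as a share of that sum, which removes differences in scaling between libraries. MET took 34.3% and 33.6% of the sum in the controls, while its share in sorted libraries 1, 2 and 3 was 23.2%, 24.3% and 13.1%. AXL took 21.4% and 21.6% in controls and 29.9%, 30.3% and 42.8% in sorted libraries. MET thus ranked above AXL in both controls and AXL ranked first in all 3 sorted libraries, with an AXL to MET ratio of 0.624 and 0.642 in controls and 1.29, 1.25 and 3.28 in sorted libraries. ROS1, an orphan receptor for most of its history and a known target of gene fusions in glioma and lung cancer, moved from 1.12% and 1.11% of the sum to 12.3%, 9.48% and 8.61%. Its rank among the 40 went from 12 and 11 in controls to 3, 3 and 4. The sum itself was 309 and 352 TPM in controls and 305, 294 and 132 TPM in sorted libraries, and the low value belongs to sorted library 3 with its high 7SL share.

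**Figure D2:**
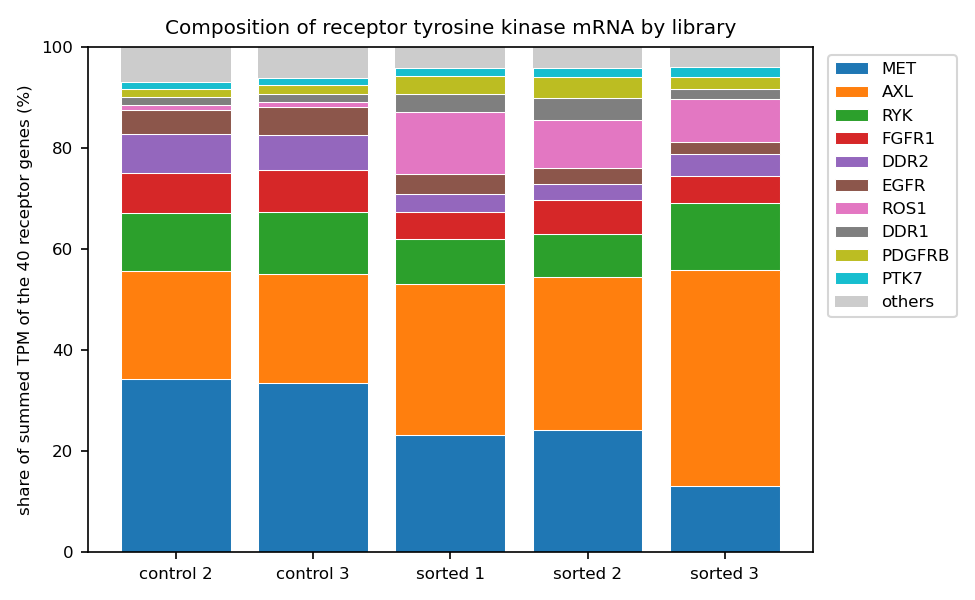
Share of the summed TPM of the 40 receptor genes held by each of the 10 most abundant tested genes, as stacked bars from 0 to 100% for each library. The MET share is 33.6 to 34.3% in controls and 13.1 to 24.3% in sorted libraries, and the ROS1 share 1.11 to 1.12% and 8.61 to 12.3%.

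Sorted and control libraries were then compared gene by gene, on counts scaled with TMM factors and given as CPM, counts scaled to a common library total. ROS1 rose and TEK fell, and 0 of the other 21 tested receptors passed the threshold of an adjusted p of 0.05 (edgeR's quasi-likelihood test, Benjamini-Hochberg adjustment over all 16304 tested genes). Calls in either direction thus came to 2 of 23, against 4.61% of all tested genes. The 1 gain stands beside 2.2% of genes called higher and the 1 loss beside 2.4% called lower, so the number of calls says little about the family. Before adjustment, 8 of the 23 had a p under 0.05 with a positive change and 4 with a negative change, ROS1 and TEK included, against 12.2% and 13.6% of all tested genes. DESeq2 called 7 receptors higher and 2 lower (7.56% and 7.39% of its tested genes), and limma-voom 4 and 2 (3.78% and 5.35%). Without sorted library 3, edgeR called 6 higher and 5 lower of 22 tested, and ROS1 and TEK were among them, where 15.4% and 16.8% of all genes were called. For AXL, DDR1, DDR2, INSR, KDR, PDGFRB, PTK7 and ROR1, which passed under some alternatives alone, the lowest adjusted p over the alternatives was 0.000172 to 0.0407 and the highest 0.478 to 0.848. TIE1 also passed with DESeq2, and STYK1 without sorted library 3. On log2(TPM + 1), 4 receptors were called lower, TEK, INSR and KDR among them, against 9.25% of all tested genes. The median log2 fold change of the 23 receptors was 0.16, against 0.00 for all tested genes. The receptor median was 0.07 without sorted library 3 and -0.02 without sorted library 2, against -0.01 and -0.02 for all genes. With library size alone and on log2(TPM + 1) it was -0.24 and -0.35, against -0.40 and -0.64. The groups did not overlap in CPM for 15 of the 23 receptors, against 50.4% of all tested genes.

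**Figure D3:**
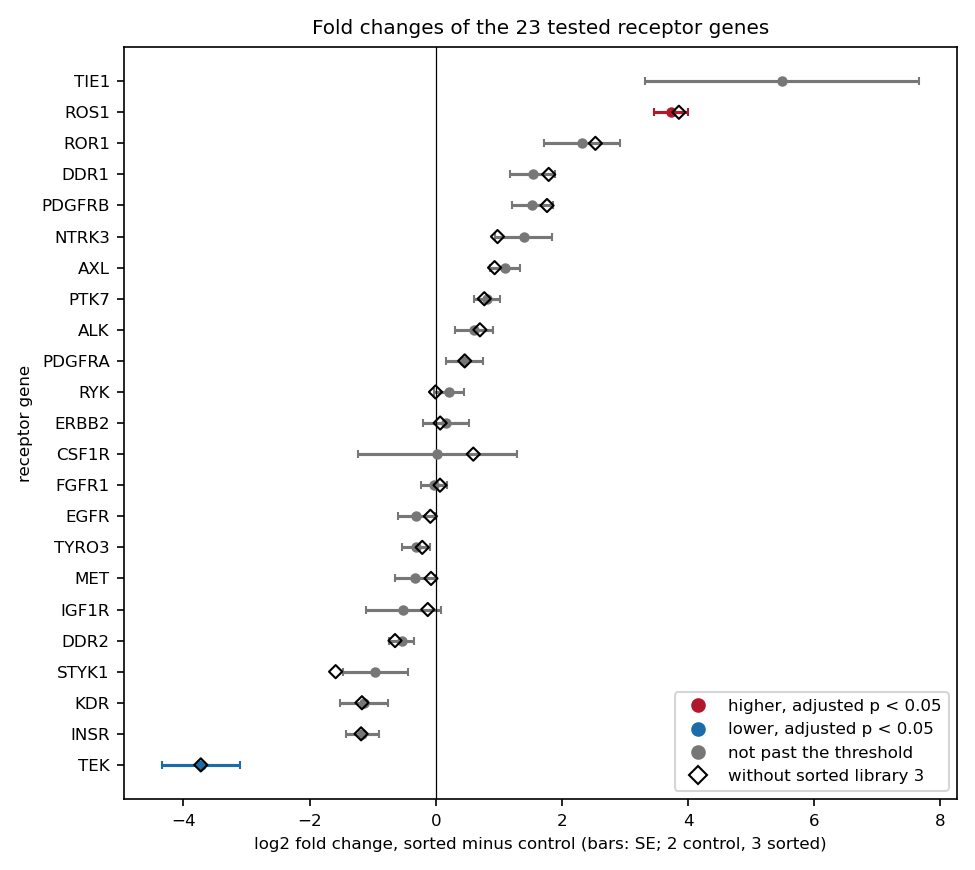
Log2 fold change of each tested receptor gene, sorted minus control, with its standard error (2 control and 3 sorted libraries); red and blue mark an adjusted p under 0.05 and open diamonds the value without sorted library 3. ROS1 stands at 3.73 and TEK at -3.72, and TIE1 has the widest bar, with an SE of 2.17.

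ROS1 (gene 6098, chromosome 6, 117287353 to 117425942, GRCh38.p14) had 17.0 and 18.8 CPM in controls 2 and 3 and 288, 229.9 and 193 CPM in sorted libraries 1, 2 and 3. Every sorted library was above both controls, with no overlap, and the same held in TPM (3.44 and 3.91 against 37.7, 27.9 and 11.3). Means were 17.9 ± 1.28 CPM in controls (SD, n = 2) and 237 ± 48.0 CPM in sorted cells (SD, n = 3). The fold was 13.3, a log2 fold change of 3.73 ± 0.27 (SE; edgeR adjusted p = 0.00781). Over 17 alternatives the adjusted p ran from 1.23e-40 with DESeq2 to 0.173. It was 0.173 with control 2 left out, 0.165 with control 3 left out and 0.0588 with sorted library 1 left out, with log2 fold changes of 3.65, 3.79 and 3.56. In these 3 fits edgeR called 0 genes in the whole table, and 1789, 1753 and 3741 genes had an unadjusted p under 0.05. Counts per gene do not separate full-length ROS1 from transcripts that hold only a part of it.

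The tested genes on either side of ROS1 were read beside it. VGLL2, which lies 13723 bases away at lower coordinates, had 4 to 19 counts in every library. DCBLD1, 56732 bases away at higher coordinates, had a log2 fold change of 0.72 and edgeR gave an adjusted p of 0.0948. Neither neighbour showed a difference of the size seen for ROS1. ALK, the receptor closest to ROS1 in its kinase domain, had 4.24 and 5.50 CPM in controls and 8.80, 7.11 and 6.28 CPM in sorted libraries. All 3 sorted values lay above both controls on this scale, but its log2 fold change was 0.60 ± 0.30 (SE; edgeR adjusted p = 0.266). In TPM the groups overlapped for ALK (1.03 and 1.42 in controls against 1.53, 1.20 and 0.473 in sorted libraries). The ROS1 to ALK ratio in TPM was 3.35 and 2.76 in controls and 24.7, 23.3 and 24.0 in sorted libraries, so it was nearly constant across the sorted group. LTK, the relative of ALK, had 5 counts in sorted library 1 and 0 elsewhere.

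TEK, also called TIE2, is the angiopoietin receptor of endothelial cells (gene 7010, chromosome 9, 27109225 to 27230174). It had 4.57 and 4.19 CPM in controls 2 and 3 and 0.557, 0.147 and 0.303 CPM in sorted libraries 1, 2 and 3, from 154, 153, 10, 4 and 4 counts. All sorted values lay below both controls, and the lowest of them stood on 4 counts. The fold was 13.2 lower in sorted cells, a log2 fold change of -3.72 ± 0.61 (SE; edgeR adjusted p = 0.0329). Over 16 alternatives the adjusted p ran from 2.72e-05 with DESeq2 to 0.322. It was 0.322 with control 2 left out, 0.308 with control 3 left out, 0.0724 without sorted library 1 and 0.0785 without sorted library 2, with log2 fold changes of -4.36 to -3.30. Of 7 endothelial markers, CLDN5 was at 0 in every library. The summed level of the 7 was 0.79 to 1.65 TPM in controls and 0.427 to 1.05 TPM in sorted libraries, and 0 of the 4 tested markers passed the threshold by edgeR, by which 0 also had an unadjusted p under 0.05. In bulk RNA, fewer cells with a transcript and less of it per cell cannot be told apart, here and for the genes that follow.

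The other receptors of vessel growth were KDR and TIE1. KDR, the main VEGF receptor of endothelium, had 8.55 and 8.65 CPM in controls and 5.41, 2.38 and 4.01 CPM in sorted libraries. The groups did not overlap, but the log2 fold change was -1.14 ± 0.39 (SE; edgeR adjusted p = 0.136), and the adjusted p was 0.0407 without sorted library 3. TIE1, an orphan partner of TEK, had 2 and 0 counts in controls and 0, 74 and 24 counts in sorted libraries 1, 2 and 3. Sorted library 1 matched the controls, the SE was 2.17 on the log2 scale, and the adjusted p was 0.180 with edgeR, 0.0271 with DESeq2 and 0.439 with limma-voom. FLT1 and FLT4, the other VEGF receptors, had 0 counts in all libraries, a count that still permits 0.0822 to 0.227 CPM depending on the library (3 counts, counting error only).

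AXL (gene 558, chromosome 19, 41219223 to 41261766) had 212 and 221 CPM in controls and 409, 417 and 562 CPM in sorted libraries 1, 2 and 3. The groups did not overlap on this scale, and the fold was 2.14. The log2 fold change of 1.10 ± 0.23 (SE) fell short of the threshold (edgeR adjusted p = 0.0552). It passed with DESeq2 (0.000401), limma-voom (0.0292) and without sorted library 3 (0.000263). In TPM the groups did overlap, because sorted library 3 had 56.3 TPM, below the 66.0 and 76.0 of the controls, while sorted libraries 1 and 2 had 91.4 and 89.0. TYRO3, the TAM receptor of the nervous system, had 30.0 and 32.0 CPM in controls and 23.3, 30.0 and 21.6 CPM in sorted libraries, with an adjusted p of 0.430. MERTK, which serves the uptake of dead cells by macrophages, had 4 and 7 counts in controls and 0 in all sorted libraries, too few to test.

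PDGFRB and DDR1 were above both controls in all 3 sorted libraries in CPM, least so in sorted library 3. PDGFRB, the PDGF receptor of pericytes and fibroblasts (gene 5159, chromosome 5, 150113839 to 150155845), had 18.2 and 20.4 CPM in controls and 60.4, 70.7 and 35.9 CPM in sorted libraries. Its log2 fold change was 1.53 ± 0.33 (SE; edgeR adjusted p = 0.0564), and the adjusted p was 0.000172 without sorted library 3. In TPM the value of sorted library 3, 3.05, fell below both controls (4.99 and 6.37). Of the 5 pericyte and fibroblast markers, ACTA2 passed the threshold as higher and LUM as lower. Their summed level was 28.7 to 32.9 TPM in controls and 11.9 to 20.8 TPM in sorted libraries, and its part in the PDGFRB values was not tested. PDGFRA, the receptor amplified in some glioblastomas, had 5.61 and 5.31 CPM in controls and 9.14, 5.97 and 7.34 CPM in sorted libraries, with an adjusted p of 0.390.

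CSF1R, the macrophage colony stimulating factor receptor, varied more within groups than between them. It had 219 and 113 counts in controls 2 and 3 and 119, 213 and 0 counts in sorted libraries 1, 2 and 3. It lies 474 bases from PDGFRB at lower coordinates on chromosome 5. Its log2 fold change was 0.03 ± 1.26 (SE), so a difference was not detectable. The 12 macrophage and microglia markers summed to 97.0 to 122 TPM in controls and 67.2 to 164 TPM in sorted libraries. CD68, a lysosomal protein also made by tumour cells, was the 1 gain among the 4 tested. KIT and FLT3, the remaining receptors of this class, had 0 counts in every library.

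The collagen receptors DDR1 and DDR2 had fold changes of opposite sign, neither past the threshold with all 5 libraries in edgeR. DDR1 (gene 780, chromosome 6, 30880970 to 30900156) had 12.5 and 12.9 CPM in controls and 39.6, 48.2 and 22.5 CPM in sorted libraries. Its log2 fold change was 1.54 ± 0.36 (SE; edgeR adjusted p = 0.0649), and the adjusted p was 0.00023 without sorted library 3. In TPM the DDR1 value of sorted library 3, 2.67, fell below both controls (4.75 and 5.46), while sorted libraries 1 and 2 had 10.8 and 12.5. DDR2, the form that binds fibrillar collagen in mesenchymal cells, had 158 and 147 CPM in controls and 106, 89.2 and 119.6 CPM in sorted libraries. All sorted values were below both controls, with a log2 fold change of -0.54 ± 0.19 (SE; edgeR adjusted p = 0.148), and the adjusted p was 0.00445 without sorted library 3. The DDR2 to DDR1 ratio in TPM was 4.98 and 4.45 in controls and 1.03, 0.724 and 2.14 in sorted libraries. The groups did not overlap in this ratio, which does not depend on the scaling between libraries.

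**Figure D4:**
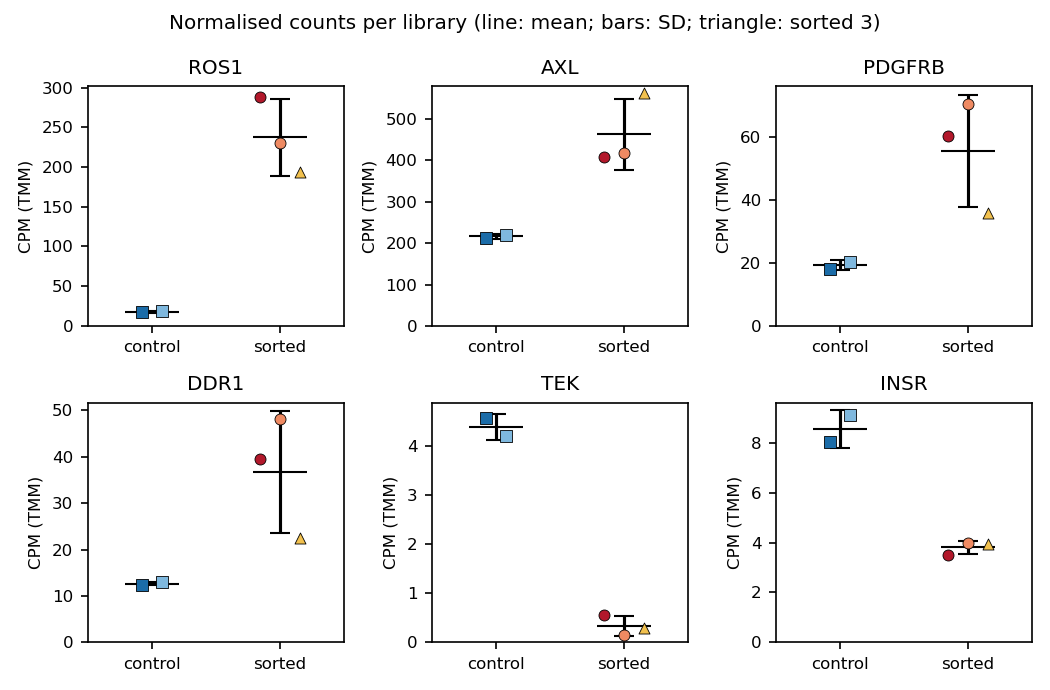
Normalised CPM of 6 receptor genes, with 1 point per library, horizontal lines at the mean and bars of 1 SD (2 control and 3 sorted libraries; the triangle is sorted library 3). The groups do not overlap for any of the 6, but the gap between them for PDGFRB and DDR1 is narrowest at sorted library 3.

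The receptors with the longest record in glioblastoma showed no difference that passed the test. MET (gene 4233, chromosome 7, 116672196 to 116798377) had 482 and 495.5 CPM in controls and 453, 475 and 242 CPM in sorted libraries 1, 2 and 3. In CPM all sorted values lay below both controls, but only sorted library 3 stood well below them. The log2 fold change was -0.33 ± 0.32 (SE; edgeR adjusted p = 0.582), and it was -0.07 without sorted library 3. In TPM MET had 106 and 118 in controls and 70.8, 71.3 and 17.2 in sorted libraries 1, 2 and 3. On log2(TPM + 1) its difference was -1.31, where the median of all tested genes was -0.64. EGFR (gene 1956, chromosome 7, 55019017 to 55211628) had 98.3 and 116 CPM in controls and 109.8, 92.7 and 57.3 CPM in sorted libraries. Its groups overlapped in CPM, with a log2 fold change of -0.31 ± 0.30 (SE; edgeR adjusted p = 0.567). In TPM all sorted values of EGFR lay below both controls (14.7 and 19.1 against 11.7, 9.46 and 3.07). On log2(TPM + 1) its difference was -1.12. The MET to EGFR ratio in TPM was 7.19 and 6.20 in controls and 6.05, 7.54 and 5.59 in sorted libraries, and the groups overlapped in it.

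FGFR1, the FGF receptor of mesenchymal and many glial cells (gene 2260, chromosome 8, 38411143 to 38468635), had 86.3 and 95.5 CPM in controls and 85.0, 105 and 76.5 CPM in sorted libraries. Its log2 fold change of -0.03 ± 0.20 (SE) changed sign with upper quartile scaling and in the fits lacking control 3 or sorted library 3, and the edgeR adjusted p was 0.948. In TPM all sorted values of FGFR1 lay below both controls (24.1 and 29.9 against 16.5, 19.8 and 6.99). FGFR2, FGFR3 and FGFR4 had 0 counts in all libraries, so FGFR1 was the FGF receptor detected here. ERBB2, the EGFR partner with no ligand of its own, had 2.55 to 3.68 CPM in controls and 2.84 to 3.93 CPM in sorted libraries, with an adjusted p of 0.834. ERBB3 and ERBB4, receptors of neuregulins, had at most 8 counts in a library and were not tested.

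Insulin receptor family genes were low, and neither tested member passed the threshold with all 5 libraries in edgeR. INSR (gene 3643, chromosome 19, 7112265 to 7294414) had 8.01 and 9.09 CPM in controls and 3.51, 3.99 and 3.93 CPM in sorted libraries. The sorted libraries were close to each other and all below the controls, including library 3. The log2 fold change was -1.16 ± 0.26 (SE; edgeR adjusted p = 0.0611), 0.0170 with DESeq2, 0.0416 with limma-voom and 0.00761 without sorted library 3. IGF1R, the receptor of insulin-like growth factors, had 4.27 and 3.20 CPM in controls and 3.12, 3.70 and 0.908 CPM in sorted libraries. Its groups overlapped in CPM, and the edgeR adjusted p was 0.642. In TPM all sorted values of IGF1R lay below both controls (0.526 and 0.421 against 0.263, 0.301 and 0.0346). INSRR, an alkali sensor of the kidney, had 0 counts in all libraries.

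None of the tested Wnt-binding receptors passed the threshold with all 5 libraries in edgeR. PTK7, a pseudokinase of planar cell polarity (gene 5754, chromosome 6, 43076314 to 43161715), had 11.6 and 12.4 CPM in controls and 19.0, 21.9 and 22.4 CPM in sorted libraries. The groups did not overlap, and the log2 fold change was 0.81 ± 0.21 (SE; edgeR adjusted p = 0.0809), and the adjusted p was 0.0114 without sorted library 3. On the log2(TPM + 1) scale its difference was -0.11, so its direction depended on the scale. RYK, the pseudokinase that binds Wnt through its extracellular domain (gene 6259, chromosome 3, 134157133 to 134250859), had 73.1 and 79.0 CPM in controls and 76.5, 75.3 and 112 CPM in sorted libraries. Its log2 fold change was 0.21 with an adjusted p of 0.636, and it was below 0 with library size alone, on TPM and FPKM and without sorted library 3. ROR1, a Wnt5a receptor of embryonic and tumour cells (gene 4919, chromosome 1, 63774017 to 64181498), had 13 and 16 counts in controls and 45, 63 and 18 counts in sorted libraries. That was 0.386 and 0.438 CPM against 2.51, 2.31 and 1.36 CPM, a log2 fold change of 2.31 ± 0.60 (SE; edgeR adjusted p = 0.0804), and the adjusted p was 0.00969 without sorted library 3. In TPM the ROR1 groups overlapped, at 0.157 and 0.0810 in controls and 0.309, 0.307 and 0.107 in sorted libraries. ROR2 had 10 counts in sorted library 2 and MUSK, the receptor of the neuromuscular junction, 15 in sorted library 3, and both had 0 elsewhere.

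Among the remaining tested genes, NTRK3 encodes the receptor of neurotrophin 3 (gene 4916, chromosome 15, 87859751 to 88256739). It had 1.93 and 1.75 CPM in controls and 3.68, 3.59 and 7.34 CPM in sorted libraries. All sorted values were above the controls, but the log2 fold change was 1.39 ± 0.46 (SE; edgeR adjusted p = 0.127). STYK1, a membrane kinase without a known ligand, had 7.36 and 5.92 CPM in controls and 2.01, 2.38 and 5.97 CPM in sorted libraries. Sorted library 3 overlapped the controls, with an adjusted p of 0.303, or 0.00497 without it. In TPM STYK1 did not overlap between groups (3.77 and 3.42 against 0.694, 0.792 and 0.924). On log2(TPM + 1) the median of all tested genes was -0.64, so lower values on that scale were not particular to STYK1. NTRK2 and MST1R, receptors of BDNF and of macrophage stimulating protein, had 0 counts in all libraries, and RET, the receptor of GDNF ligands, had 3 counts in sorted library 1.

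Promoter sequences are shown for the 2 called genes, ROS1 and TEK, and for AXL and PDGFRB, higher in every sorted library on the CPM scale. Each runs from 250 bases before to 50 bases after the RefSeq gene start (GRCh38.p14). Which start the cells used was not measured. Capitals mark matches on either strand to 4 motifs that were searched, the AP-1 motif TGANTCA, the GC box GGGCGG, the CCAAT box CCAAT and the TATA box TATAAA, none of which overlapped here. The regions are chr6:117425893-117426192 (minus strand) for ROS1, chr9:27108975-27109274 (plus strand) for TEK, chr19:41218973-41219272 (plus strand) for AXL and chr5:150155796-150156095 (minus strand) for PDGFRB.
ROS1: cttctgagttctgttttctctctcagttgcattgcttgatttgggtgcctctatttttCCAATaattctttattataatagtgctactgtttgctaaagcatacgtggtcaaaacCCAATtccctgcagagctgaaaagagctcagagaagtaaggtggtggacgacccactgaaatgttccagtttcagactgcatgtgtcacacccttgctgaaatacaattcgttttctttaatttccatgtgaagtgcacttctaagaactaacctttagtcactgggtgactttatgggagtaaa
TEK: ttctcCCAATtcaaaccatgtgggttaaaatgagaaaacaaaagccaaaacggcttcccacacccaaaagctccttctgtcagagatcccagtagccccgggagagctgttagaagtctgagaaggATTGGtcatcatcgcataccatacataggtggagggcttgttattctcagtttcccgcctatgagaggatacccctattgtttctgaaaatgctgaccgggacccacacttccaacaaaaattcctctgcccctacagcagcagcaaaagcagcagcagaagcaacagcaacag
AXL: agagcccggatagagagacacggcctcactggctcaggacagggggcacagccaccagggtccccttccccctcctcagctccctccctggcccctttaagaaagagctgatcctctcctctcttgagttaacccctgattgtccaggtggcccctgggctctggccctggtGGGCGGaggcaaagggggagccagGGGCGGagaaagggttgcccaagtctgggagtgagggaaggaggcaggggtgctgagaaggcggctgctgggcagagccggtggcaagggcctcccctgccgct
PDGFRB: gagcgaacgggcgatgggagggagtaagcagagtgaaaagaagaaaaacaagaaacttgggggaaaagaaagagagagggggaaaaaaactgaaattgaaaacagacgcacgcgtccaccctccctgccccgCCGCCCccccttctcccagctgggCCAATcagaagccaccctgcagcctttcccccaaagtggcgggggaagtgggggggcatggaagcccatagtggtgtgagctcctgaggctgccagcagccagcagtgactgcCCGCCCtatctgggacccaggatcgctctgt

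Both called genes had promoters with few CpG dinucleotides and CCAAT matches but no GC box. The uncalled TIE1 and DDR1, with 1 and 9 CpG, also had a CCAAT match and no GC box. These features thus did not set the called genes apart. ROS1 had 3 CpG in 300 bases and CCAAT matches 192 and 135 bases before the start, written as positions -192 and -135. TEK had 5 CpG and matches at -245 and -124. AXL had 7 CpG and GC boxes at -78 and -54. PDGFRB had 11 CpG, GC boxes at -118 and 20 and a CCAAT match at -94. Over 27305 RefSeq promoters of the same length, 35.7% held a CCAAT match, 44.6% a GC box, 7.76% an AP-1 match and 11.95% a TATA match, and the median was 14 CpG. Promoters were found for 35 of the 40 receptors. The median was 24 CpG over 21 tested members and 33.5 CpG over 8 of the members with 0 counts in every library. A match is only a run of letters, and no binding was measured.

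The other genes of the signalling pathway are given here by role, beside the 4.61% of all tested genes that edgeR called. Of 52 ligand genes 34 were tested, and edgeR's quasi-likelihood test called 0, with 7 higher and 2 lower at an unadjusted p under 0.05 (12.2% and 13.6% of all tested genes). DESeq2 called 6 ligands and limma-voom 3, where they called 15% and 9.14% of all genes they tested. EREG, an EGFR ligand and the most abundant, had 514 and 667 CPM in controls and 1337, 948 and 2160.3 CPM in sorted libraries. Every sorted value was above the controls in CPM, with a log2 fold change of 1.33 ± 0.40 (SE; edgeR adjusted p = 0.108). In TPM its groups overlapped, at 163 and 233 in controls and 303, 206 and 220 in sorted libraries. VEGFA had 438 and 425 CPM in controls and 564, 678 and 111 CPM in sorted libraries, so sorted library 3 lay below the controls and the others above. The ligands of MET, AXL and TEK were looked at after their values had been seen. HGF, the MET ligand, had 56.6 and 63.1 CPM in controls and 182, 130.3 and 296 CPM in sorted libraries, with an adjusted p of 0.0567 by edgeR. For HGF the adjusted p was 9.88e-05 with DESeq2, 0.0323 with limma-voom and 0.000778 without sorted library 3. HGF was not alone: its log2 fold change was 1.76, and PGF and MST1 had 2.54 and 2.67 (edgeR adjusted p = 0.0679 and 0.0783). Of the 34 tested ligands, 11 were higher in every sorted library and 7 lower, against 22.7% and 27.7% of all tested genes. GAS6, the AXL ligand, had an adjusted p of 0.872, and ANGPT1, the TEK ligand, one of 0.522.

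Of 22 co-receptors 12 were tested and 0 were called by edgeR, by DESeq2 or by limma-voom, with 3 higher and 0 lower at an unadjusted p under 0.05 in edgeR. CD44 and SDC4, the most abundant, stood at 0.45 and 0.47 on the log2 scale (edgeR adjusted p = 0.290 and 0.178). Of 43 tested adaptors and effectors, FYN was the 1 gain, with 0 losses. FYN, a SRC family kinase that acts below many receptors, rose from 52.2 and 50.5 CPM in controls to 148, 137 and 125 CPM in sorted libraries, with a log2 fold change of 1.41 ± 0.18 (SE; edgeR adjusted p = 0.0220). NRAS and PTPN11, the most abundant of that list, stood at -0.64 and -0.35 on the log2 scale (edgeR adjusted p = 0.0974 and 0.419).

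Among 33 tested negative regulators, 0 rose and 2 fell. NEDD4, a ubiquitin ligase that directs several receptors to degradation, fell from 343 and 347 CPM in controls to 155, 124 and 121 CPM in sorted libraries (log2 fold change -1.37, edgeR adjusted p = 0.0251). UBASH3B, a phosphatase that restrains or prolongs receptor signals depending on the cell, fell from 34.4 and 40.3 CPM to 14.6, 17.0 and 15.1 CPM (log2 fold change -1.26, adjusted p = 0.0298). Of 17 genes whose transcription follows ERK activity, 0 rose and FOS was the 1 loss. DUSP4, DUSP5, DUSP6, SPRY2, SPRY4, SPRED1 and SPRED2 belong both to this list and to the negative regulators. FOS, a subunit of AP-1, fell from 12.3 and 12.3 CPM to 0.334, 1.06 and 1.59 CPM, 12.5-fold, with an adjusted p of 0.0295. CCND1 and IER3, the most abundant of these genes, stood at -0.77 and 0.46 on the log2 scale (edgeR adjusted p = 0.137 and 0.477). Median log2 fold changes were 0.29 for ligands, 0.31 for co-receptors, -0.06 for adaptors and effectors, -0.03 for negative regulators and -0.21 for ERK output genes, beside 0.00 for all tested genes. Without sorted library 3, 14 ligands, 5 co-receptors, 14 adaptors and effectors, 15 negative regulators and 10 ERK output genes were called, where 32.2% of all genes were. With control 2, control 3 or sorted library 1 left out, edgeR called 0 genes in the whole table, and with sorted library 2 left out it called 19, or 0.122%, so 0 calls in these lists say nothing about them. The FYN call was also lost with library size alone, on both TPM scales and on log2(FPKM + 1). Calls among negative regulators went from 2 to 0 on log2(TPM + 0.1), and the FOS call was lost with at least 10 counts in every library, a filter that FOS did not pass.

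**Figure D5:**
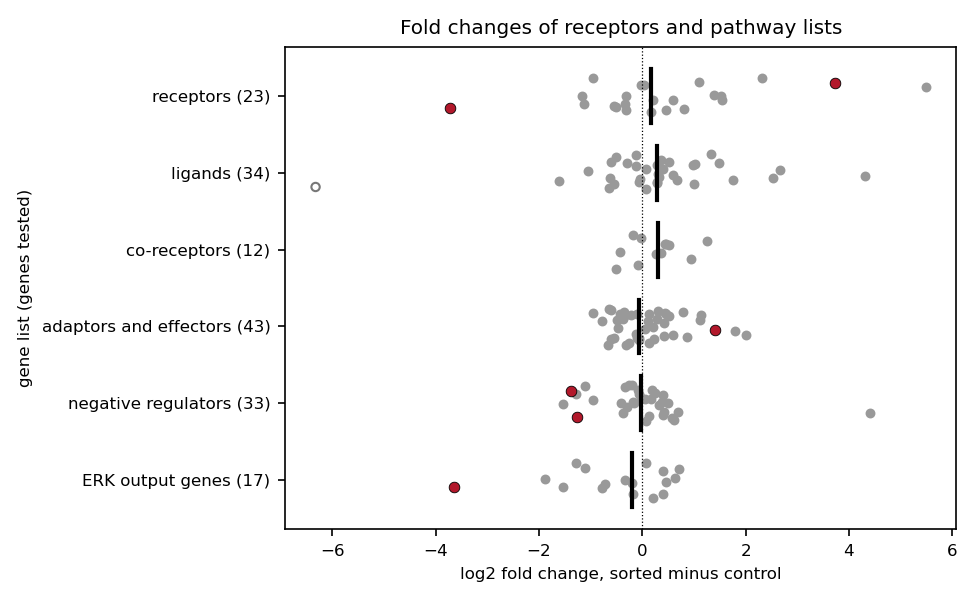
Log2 fold changes, sorted minus control, of the 23 tested receptors and of 5 lists of pathway genes, with 1 point per gene (red, adjusted p under 0.05; open, 0 counts in all libraries of a group, where the value depends on the fitted prior) and a vertical line at each list's median. Red points are ROS1 and TEK among receptors, FYN, NEDD4, UBASH3B and FOS in the lists, and none among ligands or co-receptors.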

How the data were processed

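RNA was measured in 5 libraries. Per the labels' protocols, total RNA was taken up in TRIzol, cleaned on a micro column and made into stranded total RNA libraries. The submitters' processing notes name the build GRCh38 and the tool StringTie, with no role. The sources used here name no aligner and no strand setting. The authors deposited an estimated count, an FPKM and a TPM per gene and library, per the file headers. The estimated counts were whole numbers as deposited.

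From these counts, genes were filtered with filterByExpr, scaled with TMM and tested with edgeR 4.0.16 (quasi-likelihood, robust, group as the only term) in R 4.3.3. Filtering left 16304 genes, and adjustment was over all of them with a threshold of 0.05. The SE is the absolute log2 fold change over the square root of F. The lowest chi-square per degree of freedom between libraries was 20.2 (no library repeats another). Alternatives were 17, with DESeq2 1.42.0 and limma 3.58.1 among them. The test was checked on simulated counts. Full values were given for called members, the 10 most abundant, and those without overlap at 2-fold or more, and values of other members are added for completeness. In each pathway list up to 4 genes that passed were named by smallest adjusted p, or the called gene and the 2 most abundant where fewer than 2 passed. The members and lists were chosen with earlier results of these data known. Member promoters are RefSeq's (GRCh38.p14). Protein sequences were not used here.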

Additional observations from a re-analysis of the deposited data

How the results depend on the processing

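Of 254 recalculated fold changes of 15 named receptors, 207 kept their direction and their side of the threshold, 28 newly passed it, 9 no longer did and 10 changed sign. Sign changes were confined to 3 uncalled genes: FGFR1 (0.036 with upper quartile factors, and -0.163 to 0.068 when 1 library was left out, above 0 without control 3 and without sorted library 3), PTK7 (-0.11 on log2(TPM + 1), -0.15 on log2(TPM + 0.1)) and RYK (-0.24 with library size alone, -0.76 and -0.78 on the TPM scales, -0.23 on log2(FPKM + 1), and -0.0034 to 0.32 when 1 library was left out, lowest without sorted library 3). The called receptors, 1 higher and 1 lower (2 in all), became 7, 2 and 9 with DESeq2, 4, 2 and 6 with limma-voom, 4, 1 and 5 with no filter on low counts, 4, 0 and 4 with at least 10 counts in every library, 2, 1 and 3 with protein-coding genes alone, 1, 4 and 5 on log2(TPM + 1), 0, 1 and 1 on log2(TPM + 0.1), and 1, 2 and 3 on log2(FPKM + 1). Leaving out 1 library gave 0 to 6 higher, 0 to 5 lower and 0 to 11 in all. The upper values came without sorted library 3, and the 0 calls without control 2, control 3 or sorted library 1, where 6, 7 and 11 receptors had an unadjusted p under 0.05. The share of all tested genes called higher and lower also moved with the setting: 7.56% and 7.39% with DESeq2, 3.78% and 5.35% with limma-voom, 1.93% and 2.4% with no filter, 3.44% and 3.43% with at least 10 counts, 2.91% and 3.33% with protein-coding genes alone, 0.601% and 9.25% on log2(TPM + 1), 0.368% and 2.72% on log2(TPM + 0.1), 1.35% and 6.51% on log2(FPKM + 1) and 1.18% and 1.34% with the replicate block. Without sorted library 2, edgeR called 1 receptor and 0.122% of all genes. The causes were not tested. With the replicate block, 1 receptor was higher, 0 were lower and 1 was called in all: TEK had an adjusted p of 0.0504 and ROS1 of 0.00646, while 0 adaptors and effectors and 0 negative regulators were called. The numbers are not known to pair the samples. Same-numbered deviations correlated at 0.067 and 0.0964 over only 2 pairs. With 2 controls the deviations from their mean mirror each other, so these correlations cannot decide it. ROS1 missed the threshold on log2(TPM + 0.1), with an adjusted p of 0.0623. TEK, with 4 counts in sorted libraries 2 and 3, was not tested under the filter of at least 10 counts in every library. With library size alone the median of all genes moved to -0.40, and on log2(TPM + 1) to -0.64. In the same 2 settings FGFR1 stood at -0.41 and -0.96. Depth limits the genes under about 20 counts per library: ROR1, TIE1 and TEK rest on few counts in some libraries.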
